A study of Mus musculus with 4 samples.

Results

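The heat shock chaperones described here are 10 genes, read by symbol from the 32285 genes of each deposited matrix, and all 10 were found once in every matrix. They cover the inducible Hsp70 genes Hspa1a and Hspa1b, the constitutive Hsp70 gene Hspa8, the Hsp110 gene Hsph1, the small heat shock protein gene Hspb1, the inducible cytosolic Hsp90 gene Hsp90aa1, the J-domain co-chaperones Dnajb1 and Dnaja1, the Hsp70 co-chaperone Bag3 and the mitochondrial co-chaperonin Hspe1. The set is a fixed list of symbols, chosen with earlier results of these data known.

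Heat shock proteins bind unfolded or aggregating polypeptides, and J-domain proteins, Hsp110 proteins and BAG proteins set the pace of the Hsp70 cycle of binding and release. When unfolded protein accumulates in the cytosol, the transcription factor Hsf1 is released from chaperones, assembles into trimers and binds inverted GAA repeats (heat shock elements) in the promoters of these genes. In pancreatic islets the same genes are known to respond to heat, oxidants and handling of the tissue, apart from the endoplasmic reticulum chaperones that serve insulin folding.

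Islet cells of male mice aged 8 weeks were profiled by single-cell RNA sequencing in 4 libraries, 1 per group. The Cre-negative library came from mice homozygous for a floxed Tet2 allele (flox/flox) and likewise for Tet3, without the Cre transgene (cre-), and the Cre-positive library from mice with the same floxed alleles that carried Pdx1 cre (cre+). The Pdx1 promoter drives Cre in the pancreatic epithelium, so endothelial cells and macrophages are not its known targets. The control offspring library came from offspring of control mothers and the IHG offspring library from offspring of mothers with intrauterine hyperglycemia, with no genotype or strain given for either. All 4 were made by 1 protocol, in which islets were released with collagenase, picked by hand, cultured and dispersed with trypsin. The labels used here name no number of mice per library. With 1 library per group, no comparison between groups has a replicate and none was tested.

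The matrices held 6421 to 16459 cell barcodes and 52489846 to 109110492 unique molecular identifiers (UMIs) per library, of which 5557 to 14723 cells were kept. Clusters were formed without the 10 genes or the other chaperones and were named from marker genes, giving 2612 to 10325 beta-like, 949 to 1930 alpha-like, 507 to 1393 delta-like and 200 to 1590 endothelial-like cells per library. Levels are counts per 1000000 UMIs (CPM) of the pooled UMIs of a class. In the beta-like class all 10 listed markers reached 20 CPM in all 4 libraries. The cluster with the most beta-like cells differed between libraries, being cluster 3 in the Cre-negative library (86.9%), cluster 1 in the Cre-positive library (78.7%), cluster 0 in the control offspring library (53.2%) and cluster 2 in the IHG offspring library (45.4%). Cluster 3 had the lowest beta marker score of the beta-like clusters, at 2.55 against 2.96 to 3.2 in the others. The score is the mean log2 level of the markers over that of the typical cluster. With the Cre-negative library clustered on its own, clusters of 564 and 339 cells scored highest for beta markers but stayed unnamed. Between 58 and 246 barcode sequences were shared by each pair of libraries, and 1577 kept cells (3.84%) had a barcode that another library also held. Tet2 in beta-like cells stood at 46.6 CPM in the Cre-negative and 33.6 CPM in the Cre-positive library, and Tet3 at 34.1 and 26.3 CPM. Tags from the 3′ end can lie outside a deleted exon, so these values do not check the genotype labels. All intervals below are 95% intervals for counting error only.

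In beta-like cells the Cre-positive library held the highest level of all 10 genes and the Cre-negative library the lowest, with the control offspring and IHG offspring libraries between them in that order. Hspa1a stood at 1730 CPM in the Cre-negative, 3907 in the Cre-positive, 3045 in the control offspring and 2524 in the IHG offspring library. Hspa1b followed with 2317, 4027, 3386 and 2350 CPM in the same order of libraries. The other members of the Hsp70 machinery kept this order. Hspa8, whose product folds proteins in unstressed cells, was at 781 CPM in the Cre-negative, 1721 in the Cre-positive, 1060 in the control offspring and 908 in the IHG offspring library. Dnaja1, which delivers clients to Hspa8, was at 314, 1169, 568 and 534 CPM. Dnajb1, which stimulates the ATPase of Hsp70, was at 930, 2065, 1511 and 1001 CPM. The Cre-negative and IHG offspring libraries thus lay close together for Hspa1b and Dnajb1, while the Cre-positive library lay apart from the other 3 for Dnaja1.

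Among the remaining genes the widest spread belonged to the nucleotide exchange factors, which eject ADP and client from Hsp70. Bag3, which also steers damaged protein to autophagy, was at 15.8 CPM in beta-like cells of the Cre-negative library, 205 in the Cre-positive, 113 in the control offspring and 89.9 in the IHG offspring library. Hsph1, which helps Hsp70 to dissolve aggregates, was at 106, 654, 283 and 224 CPM. Hsp90aa1 spanned a narrower range of 674, 1455, 1166 and 814 CPM, Hspe1, the lid of the mitochondrial chaperonin, one of 163, 358, 215 and 193 CPM, and Hspb1, which holds unfolded protein without using ATP, one of 77.0, 160, 149 and 122 CPM.

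**Figure D1:**
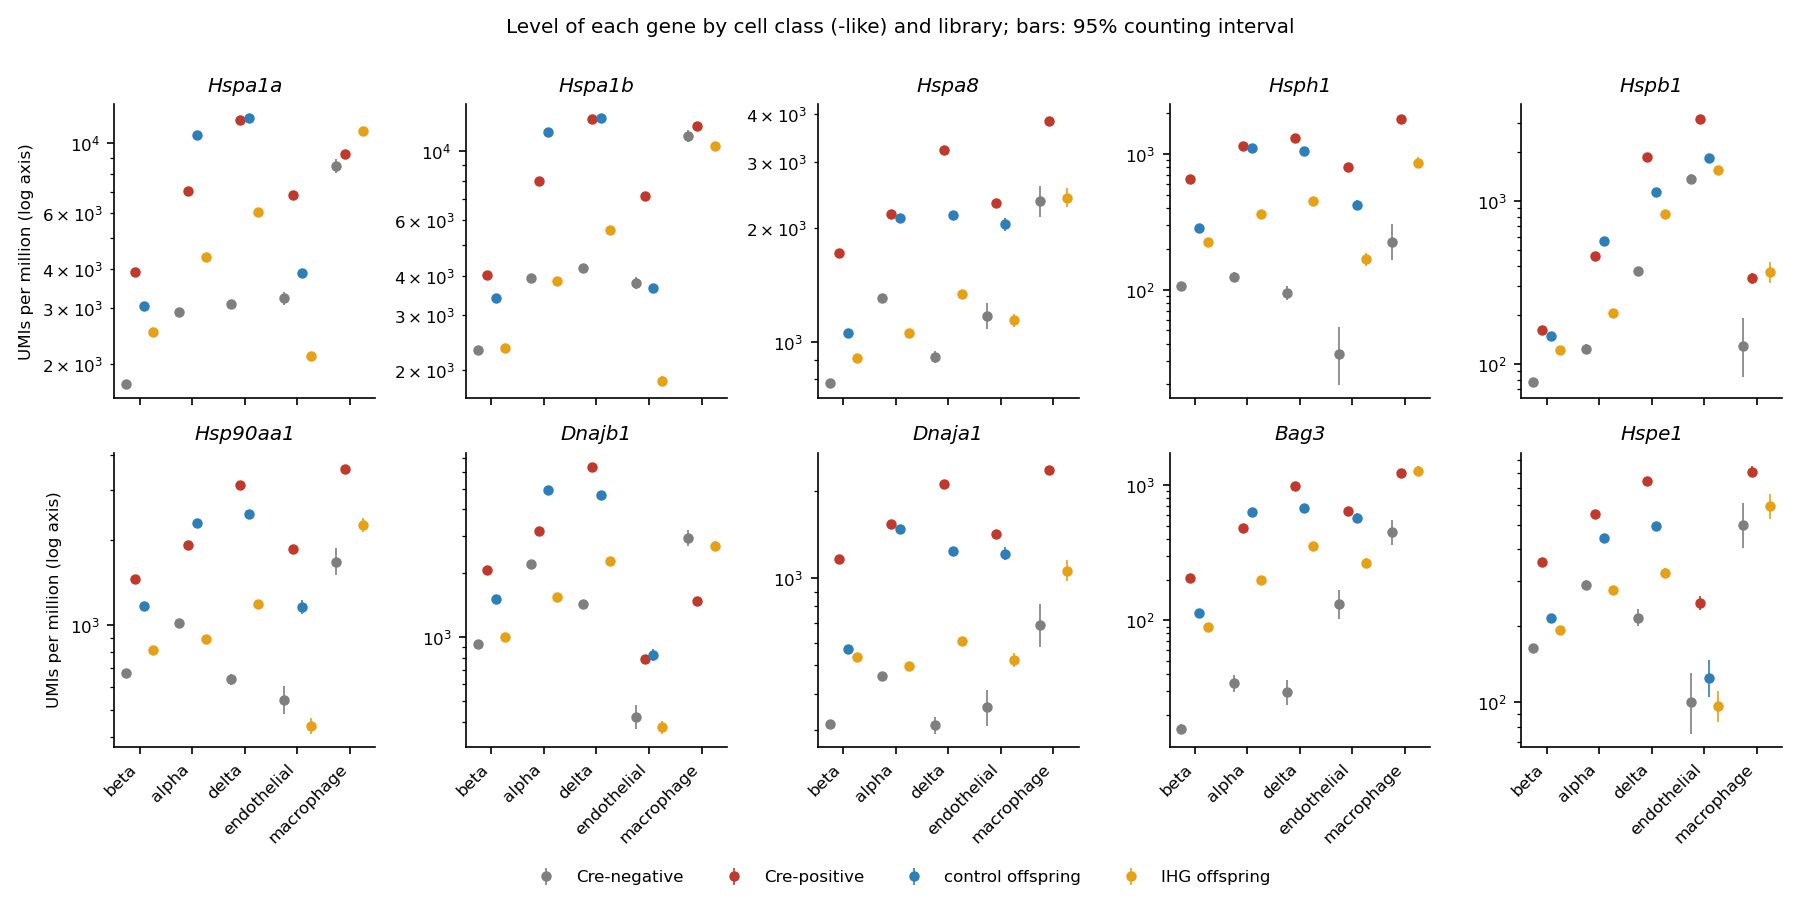
Level of each of the 10 genes in CPM (log axis, own range per panel) by cell class, with 1 point per library and its 95% counting interval; a class with fewer than 50 cells in a library has no point. For Bag3 the beta-like points run from 15.8 CPM in the Cre-negative to 205 CPM in the Cre-positive library, and for Hspb1 the endothelial-like points lie 12.3 to 20.1 times above the beta-like ones.

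The genes differed in the cell class that carried them. Hspb1 marked the vessel wall: relative to beta-like cells of the same library, endothelial-like cells held 12.3 to 20.1 times its level in 4 of 4 libraries, mural-like cells 12.1 to 13 times in the 2 libraries with enough of them, and delta-like cells 4.84 to 11.6 times. In endothelial-like cells Hspb1 stood at 1370 CPM in the Cre-negative, 3210 in the Cre-positive, 1840 in the control offspring and 1547 in the IHG offspring library, each above every beta-like level of that gene. Dnajb1 and Hspe1 ran the other way, since endothelial-like cells held 0.377 to 0.544 of the beta-like Dnajb1 level and 0.503 to 0.687 of the beta-like Hspe1 level in 4 of 4 libraries.

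The islet endocrine classes also differed. Alpha-like cells exceeded beta-like cells in 4 of 4 libraries for 9 of the 10 genes, with Dnaja1 the exception (0.936 to 2.61 times, above in 3 libraries). For Hspa1a the alpha-like level was 1.69 to 3.48 times and the delta-like level 1.79 to 3.94 times that of beta-like cells. Macrophage-like cells, with 50 cells or more in 3 libraries, held 6.05 to 28.3 times the beta-like level of Bag3 and 2.37 to 4.9 times that of Hspa1a. Insulin transcripts were also counted in endothelial-like cells (Ins2 at 3140 to 13690 CPM, against 173277 to 242574 CPM in beta-like cells), and their source was not tested. No class that should lack these chaperones was available to set a background level.

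In delta-like cells insulin UMIs were uneven between libraries: cells with over 2% of their UMIs from Ins1 and Ins2 made up 1.97% of the class in the Cre-negative, 26.6% in the Cre-positive, 48.8% in the control offspring and 9.12% in the IHG offspring library. Delta-like comparisons are given below with and without such cells, a limit set after the data were seen.

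The first comparison the design implies is Cre-positive against Cre-negative, that is, floxed Tet2 and Tet3 with and without Pdx1-driven Cre. A gene was counted where the ratio of its CPM passed 1.5-fold and at least 1 of the libraries reached 20 CPM. In beta-like cells 10 of 10 genes were at least 1.5-fold higher in the Cre-positive library, as were 6.94% of all 6469 genes measured there. Bag3 met the 20 CPM floor only through the Cre-positive library, in which it was 12.9-fold higher (11.9 to 14.2). Hsph1 was 6.19-fold higher (5.98 to 6.42) and Dnaja1 3.72-fold higher (3.64 to 3.8), and the other 7 genes were 1.74-fold to 2.26-fold higher. The median log2 ratio of the 10 genes was 1.15, against −0.22 over all genes. Median depth (9548 UMIs in the Cre-negative and 10176 in the Cre-positive library) and mitochondrial share (7.86% and 7.85%) were close. Delta cell markers summed to 4026 CPM in beta-like cells of the Cre-negative and 573 CPM in those of the Cre-positive library, alpha cell markers to 1693 and 3357 CPM, endothelial markers to 20.4 and 30.4 CPM and macrophage markers to 8.81 and 18.5 CPM. With cells rich in hormones other than insulin left out, 10 of 10 genes still passed.

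The same direction held in the other epithelial classes. In alpha-like cells 9 of 10 genes passed 1.5-fold upward, against 4.66% of all genes, with Dnajb1 at 1.43-fold (1.4 to 1.46) the exception. Bag3 stood at 34.3 CPM in the Cre-negative and 485 CPM in the Cre-positive library, 14.2-fold higher (12.3 to 16.4). These alpha-like cells differed in other ways: 76.3% of the Cre-negative ones lay in cluster 13, which held 50 cells of no other library, and 88.9% of the Cre-positive ones in cluster 4. Their median mitochondrial share was 7.26% and 4.53%, alpha cell markers summed to 140799 and 304830 CPM, and beta cell markers to 4601 and 12835 CPM (6 and 7 of 10 at 20 CPM or more). The part of these differences in the result was not tested. In delta-like cells 10 of 10 genes passed, against 9.15% of all genes, and their median log2 ratio was 2.22, against −0.18 over all genes. Bag3 was 33.5-fold higher there (27.2 to 41.8) and Hsph1 14.0-fold higher (12.4 to 15.8). Beta cell markers in delta-like cells summed to 11169 and 100797 CPM and delta cell markers to 248648 and 109550 CPM in the Cre-negative and Cre-positive libraries. Without the insulin-rich cells the delta-like median was 2.62 and all 10 genes still passed.

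Levels were higher outside the epithelium too. In endothelial-like cells Pdx1 stood at 0 CPM in the Cre-negative library (0 UMIs, which allows up to 6.85 CPM) and 5.3 CPM in the Cre-positive library, against 103 and 126 CPM in beta-like cells. There 10 of 10 genes passed 1.5-fold upward, against 14.1% of all genes. Hsph1 was at 33.4 CPM in the Cre-negative and 802 CPM in the Cre-positive library, 24-fold higher (15.1 to 40.5), while Bag3 was 4.87-fold higher (3.84 to 6.25). In these endothelial-like cells mural cell markers summed to 20.4 CPM in the Cre-negative and 281 CPM in the Cre-positive library, and erythroid markers to 0 and 1725 CPM, and their part in the result was not tested. In macrophage-like cells (59 and 693 cells) 7 genes passed upward, against 18.2% of all genes, and 1 downward, against 33.8%. The gene that was lower was Dnajb1, at 2941 CPM in the Cre-negative and 1476 CPM in the Cre-positive library. Hspa1a and Hspa1b differed little there, at 1.09-fold (1.04 to 1.15) and 1.07-fold (1.03 to 1.12). Most endothelial-like cells lay in cluster 16 in the Cre-negative library (74%) and in cluster 6 in the Cre-positive library (74.2%), and most delta-like cells in clusters 7 (92.3%) and 5 (94.3%).

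Inside single clusters the difference had the same sign. In beta-like cluster 0 (221 Cre-positive and 183 Cre-negative cells) and cluster 1 (2056 and 94 cells), 10 of 10 genes passed upward in each (8.15% and 10.2% of all genes), with median log2 ratios of 1.27 and 1.33. Bag3 met the 20 CPM floor there only through the Cre-positive cells (10.4 and 10.1 CPM in the Cre-negative ones). In alpha-like cluster 4 (1273 and 102 cells) 9 genes passed (9.89% of all genes), in alpha-like cluster 8 (148 and 123 cells) 10 (8.55%) and in delta-like cluster 7 (53 and 468 cells) 10 (16.1%). The clusters that held most Cre-negative cells could not be compared in this way for beta-like cells (cluster 3, 2797 cells at 7339 CPM of the 10 genes together) and alpha-like cells (cluster 13, 724 cells at 13099 CPM), and no endothelial-like cluster held 50 cells of both libraries.

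**Figure D2:**
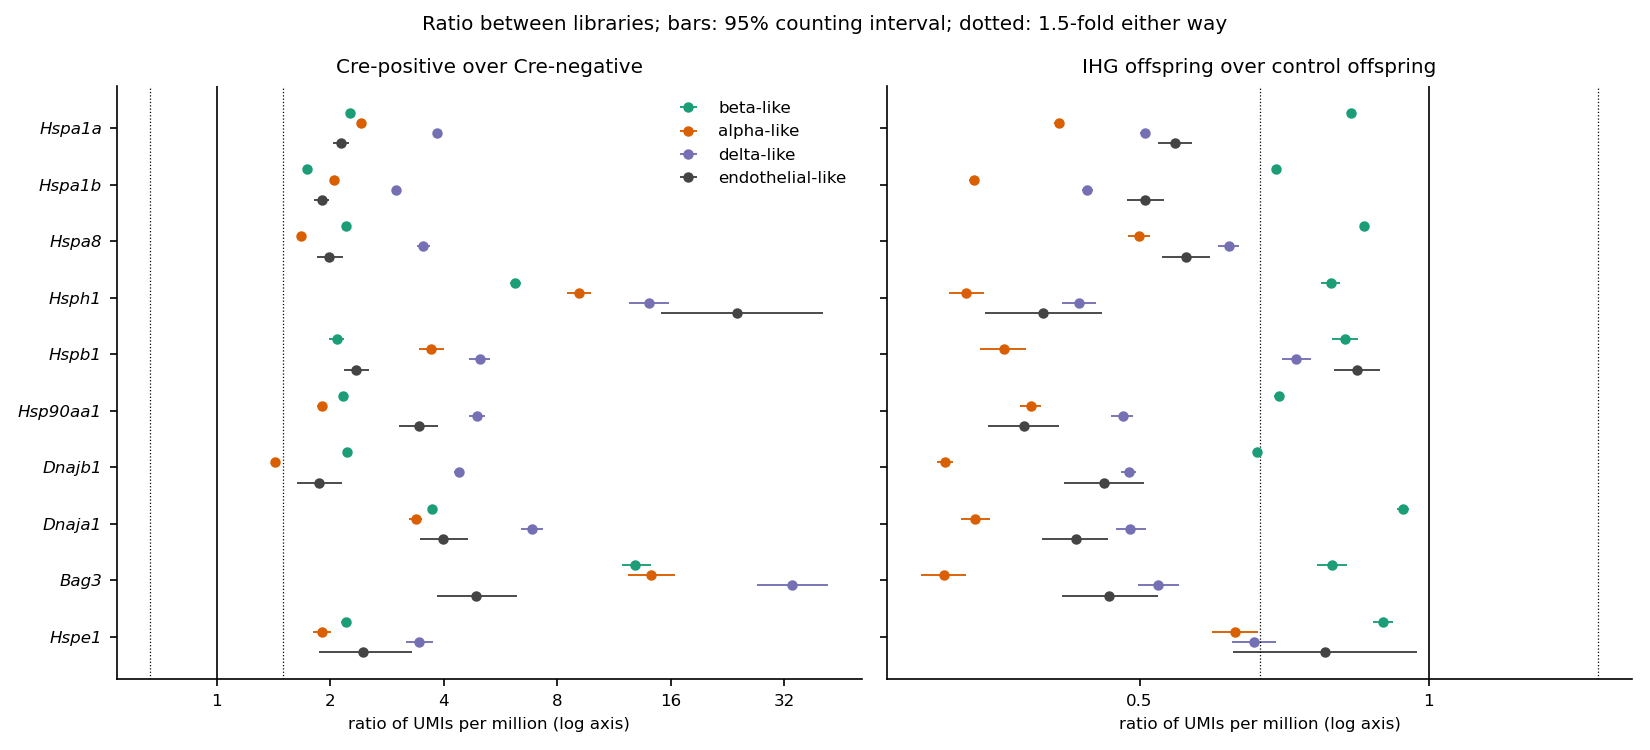
Ratio of the level of each gene between libraries (log axis, with a different range in each panel) in beta-like, alpha-like, delta-like and endothelial-like cells, with 95% counting intervals; the solid line marks a ratio of 1 and the dotted lines 1.5-fold either way. Every point for Cre-positive over Cre-negative lies above 1, up to 33.5 for Bag3 in delta-like cells, and every point for IHG over control offspring lies below 1.

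Other chaperone genes were higher in part. Of a list of 52 further cytosolic and mitochondrial chaperones, co-chaperones and heat shock factors, 45 were measured in beta-like cells, 14 were higher past 1.5-fold and 1 was lower in the Cre-positive library, with a median log2 ratio of 0.27. Those with the widest difference upward were Cct7, a subunit of the cytosolic chaperonin (3.3-fold), Dnaja4 (2.99-fold), Hspd1, the mitochondrial chaperonin that pairs with Hspe1 (2.41-fold), Bag2 (2.33-fold), Serpinh1, a collagen chaperone (2.19-fold), Stip1, which bridges Hsp70 and Hsp90 (2.18-fold), Dnajb2 (1.99-fold) and the Hsp90 activator Ahsa1 (1.97-fold). Bag6, which guards tail-anchored proteins, was the gene that was lower (1.63-fold). Hsf1 itself was at 16.7 CPM in the Cre-negative and 19.5 CPM in the Cre-positive library, below the floor. In endothelial-like cells 23 of 44 genes of this list were higher and 4 lower, and in macrophage-like cells 25 of 42 were higher and 4 lower.

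Other stress lists were not uniform across classes. Immediate early genes, the transcription factors and regulators first switched on by stimulation or by tissue handling, were higher for 12 of 20 and lower for 0 in beta-like cells, but higher for 3 and lower for 12 of 20 in alpha-like cells, where 9 of the 10 chaperones were higher and 38.4% of all genes were lower past 1.5-fold. In macrophage-like cells 1 of 21 immediate early genes was higher and 13 were lower. Integrated stress response genes were higher for 10 and lower for 2 of 20 in beta-like cells, and endoplasmic reticulum chaperones higher for 7 of 16. Whether handling of the islets had a part in the chaperone levels was not tested.

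The second comparison is IHG offspring against control offspring. All 10 genes were lower in the IHG offspring library in each of the 4 main classes, and the distance depended on the class. In alpha-like cells 10 of 10 genes were lower past 1.5-fold, against 7.14% of all 5797 genes measured, with a median log2 ratio of −1.52, against −0.09 over all genes. Bag3 stood at 635 CPM in the control offspring and 199 CPM in the IHG offspring library, 3.2-fold lower (3.03 to 3.37). Dnajb1 stood at 4931 and 1549 CPM, 3.18-fold lower (3.12 to 3.24), and Hsph1 at 1103 and 364 CPM, 3.03-fold lower (2.91 to 3.15). Hspe1 had the narrowest gap of the 10 (1.59-fold, 1.51 to 1.68). Beta cell markers in these alpha-like cells summed to 21290 CPM in the control offspring and 4184 CPM in the IHG offspring library (9 and 6 of 10 at 20 CPM or more), and median depth was 4114 and 6323 UMIs. Insulin-rich cells made up 11.9% and 1.14%, and with them left out all 10 genes were still lower past 1.5-fold. Most alpha-like cells lay in cluster 4 in the control offspring (93.4%) and in cluster 8 in the IHG offspring library (55.8%).

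In delta-like cells 9 genes were lower past 1.5-fold, against 5.53% of all genes, and Hspb1 was 1.37-fold lower (1.33 to 1.42). Without the insulin-rich cells, 576 control offspring and 1266 IHG offspring cells were left, all 10 genes passed and the median log2 ratio went from −1.01 to −1.37. In endothelial-like cells 8 genes were lower, against 9.06% of all genes, with Hspb1 at 1.19-fold lower (1.13 to 1.26) and Hspe1 at 1.28-fold lower (1.03 to 1.6) outside the rule. Most of these cells lay in cluster 6 in the control offspring (96.5%) and in cluster 16 in the IHG offspring library (64.3%), and within cluster 6 none of the 10 genes passed. Of all genes in cluster 6, 7.67% were lower and 11.1% higher in the IHG offspring library. Mural cell markers in endothelial-like cells summed to 2407 CPM in the control offspring and 158 CPM in the IHG offspring library, and erythroid markers to 206 and 570 CPM. In proliferating cells 4 genes were lower, against 3.39% of all genes, and Bag3 was level (100.6 CPM in the control offspring and 100.8 CPM in the IHG offspring library).

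Beta-like cells showed the least of this difference. There 1 of 10 genes was lower past 1.5-fold, against 0.706% of all 5521 genes measured, and none was higher, against 0.561%. That gene was Dnajb1, 1.51-fold lower (1.49 to 1.53), which sits at the threshold, and with median-of-ratios scaling 0 genes passed. The other 9 genes were 1.06-fold (Dnaja1) to 1.44-fold (Hspa1b) lower. Fkbp5, an Hsp90 co-chaperone known as a glucocorticoid target, was the 1 gene of the 52 further chaperones past 1.5-fold in beta-like cells, and it was higher in the IHG offspring library (102 against 60.6 CPM, 1.68-fold, 1.62 to 1.75).

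In alpha-like cells Fkbp5 was likewise higher (1.56-fold), while 10 of 43 further chaperones were lower, led by Hspb8, a small heat shock protein that works with Bag3 (2.93-fold), Hspd1 (2.35-fold), Serpinh1 (2.24-fold), Dnaja4 (2.2-fold), Dnajb4 (2.12-fold), Cacybp (1.91-fold), Hsf2, a second heat shock factor (1.88-fold), and Hsp90ab1, the constitutive cytosolic Hsp90 (1.86-fold). Immediate early genes were lower for 19 of 20 in alpha-like, 15 of 20 in delta-like, 12 of 21 in endothelial-like and 6 of 17 in beta-like cells. Their part in the chaperone result was not tested.

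The design also allows each Cre library to be set beside the control offspring library, which they share, so the values are given side by side only. In beta-like cells 5 genes were higher in the Cre-positive library than in the control offspring library (6.31% of all genes), and 7 were lower in the Cre-negative library (3.71% of all genes). Bag3 was among these 7 and met the floor only through the control offspring library (15.8 CPM in the Cre-negative library). In alpha-like cells 2 genes, Hspa1a and Dnajb1, were lower in the Cre-positive library (3.54% of all genes) and none was higher (2.4%), whereas all 10 were lower in the Cre-negative library (4.47%). Bag3 in alpha-like cells was 1.31-fold lower (1.25 to 1.37) in the Cre-positive and 18.5-fold lower (16.1 to 21.5) in the Cre-negative library. In delta-like cells 3 genes were higher in the Cre-positive library (4.53% of all genes) and 10 lower in the Cre-negative library (7.5%), and in endothelial-like cells 6 were higher (6.72%) and 6 lower (14.3%). Among proliferating cells 7 genes were higher in the Cre-positive library (11.8%). The Cre-negative library was the lowest of the 4 for 10 genes in beta-like and 10 in delta-like cells, 5 in alpha-like and 4 in endothelial-like cells, and the IHG offspring library was the lowest for the remaining 5 and 6.

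Pooled levels hide how the UMIs were spread over cells. Each cell was thinned at random to 2000 UMIs, shallower cells were left out, and the UMIs of the 10 genes were added up. In beta-like cells the median sum was 13 in the Cre-negative (quartiles 9 and 19), 30 in the Cre-positive (23 and 39), 19 in the control offspring (13 and 29) and 11 in the IHG offspring library (4 and 31). The first 3 libraries thus had upper quartiles 1.7 to 2.23 times their lower quartiles, and the IHG offspring library 7.75 times.

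Counted in ranges that double in width from 4 to 7 UMIs upward, the IHG offspring distribution had a dip in the middle. Of its beta-like cells, 44.7% (43.4 to 46, exact binomial) held under 8 UMIs of the 10 genes, 10.3% held 8 to 15 and 45% held 16 or more. In the control offspring library these shares were 8.25% (7.72 to 8.81), 27.3% and 64.4%. At the upper end the libraries were close, with 23.6% of IHG offspring and 21.1% of control offspring cells at 32 UMIs or more. The edges of these ranges were chosen after the values were seen. The dip is described on that scale only, and ranges of equal width were not counted. The range of 16 to 31 held 21.4% of IHG offspring cells and is double the width of that of 8 to 15. Per UMI these ranges were therefore nearly level.

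A dip on this scale also appeared in alpha-like and delta-like cells, but in higher ranges. In alpha-like cells of the IHG offspring library 25.1% held under 8 UMIs and 24.4% held 8 to 15. A further 13.8% held 16 to 31 and 36.7% held 32 or more. The range of 32 to 63 held 25.2% and is double the width of that of 16 to 31. Per UMI it held no more than that range, so the alpha-like dip belongs to this scale. Of the control offspring cells 0.332% were under 8 and 94.6% were at 32 or more. In delta-like cells 25.7% of the IHG offspring cells were under 8 UMIs, 24.4% at 8 to 15 and 13.8% at 16 to 31. The range of 32 to 63 held 8.59% and that of 64 or more 27.4%, and the quartiles were 7 and 71. Endothelial-like cells of the IHG offspring library had 1 maximum, at 8 to 15 UMIs (40.7%), with quartiles of 8 and 19. These were 427 cells, since 344 shallower cells of the class were left out. Of the beta-like cells of that library 5774 were kept and 59 left out.

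**Figure D3:**
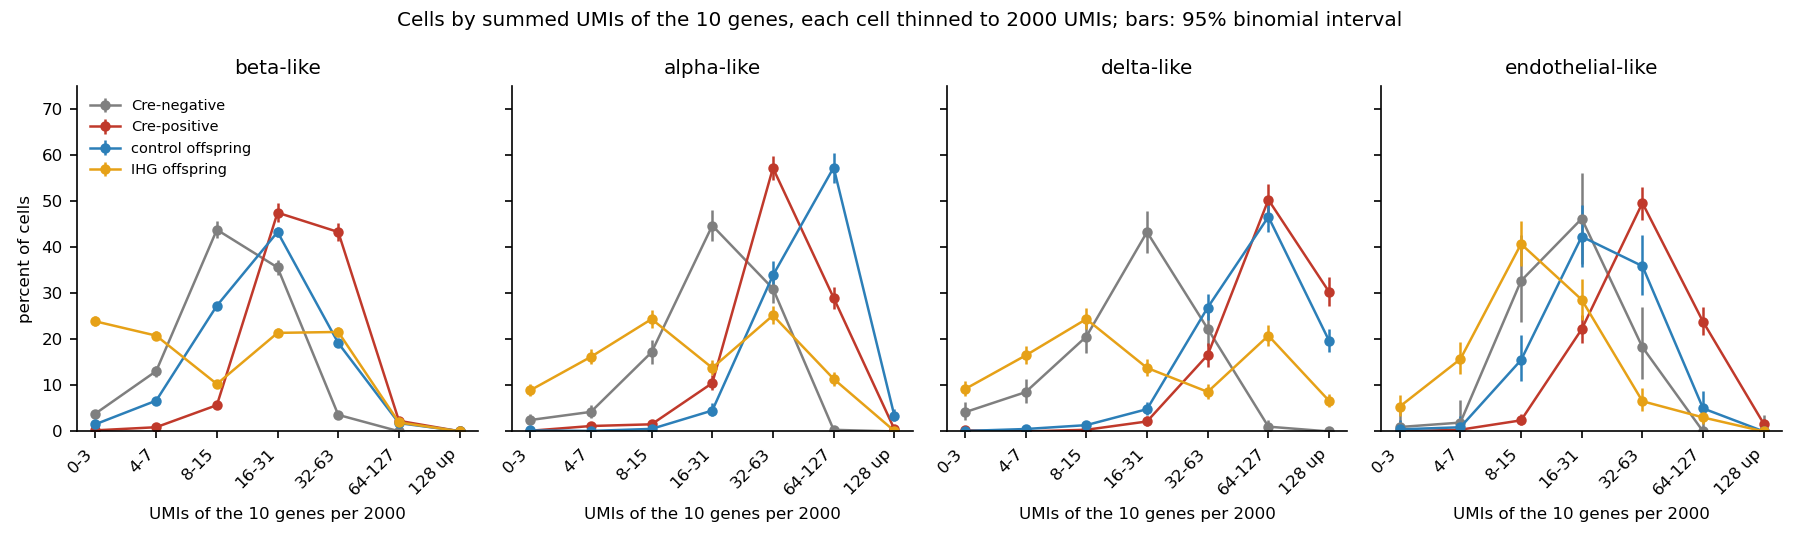
Percent of cells by the summed UMIs of the 10 genes in cells thinned to 2000 UMIs, with 1 line per library and 95% binomial intervals. The ranges double in width from 4 to 7 UMIs upward, so the maxima depend on the width of the ranges. Shallower cells are left out, which removed 96 to 801 endothelial-like cells per library and kept 104 to 789. The IHG offspring line has maxima at both sides of 8 to 15 UMIs in beta-like cells (10.3% in that range) and of 16 to 31 UMIs in alpha-like cells (13.8%), while each other library has a single main maximum.

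The low and high cells of the IHG offspring library fell in different clusters, although the 10 genes and the 52 further chaperones had been left out of the clustering. Beta-like cluster 2 (2651 cells) held 2275 CPM of the 10 genes together and cluster 0 (1508 cells) 13699 CPM. Hspa1a was at 461 CPM in cluster 2 and 4018 CPM in cluster 0, Dnajb1 at 184 and 1608 CPM, and Bag3 at 20.1 and 149 CPM. All 10 genes passed 1.5-fold, against 3.39% of all genes, and the median log2 ratio was 2.72. Hspb1 met the 20 CPM floor only through cluster 0 (192.4 CPM, against 17.2 CPM in cluster 2). Depth and mitochondrial share were alike, with medians of 9274 UMIs and 9.08% in cluster 2 and of 8667 UMIs and 8.32% in cluster 0.

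Pairs of clusters in the other classes of the IHG offspring library differed in the same way. Alpha-like cluster 4 (826 cells) held 24326 CPM of the 10 genes and cluster 8 (1076 cells) 4765 CPM, with 10 of 10 genes past 1.5-fold against 10.2% of all genes. Delta-like cluster 5 (476 cells) held 42607 CPM and cluster 7 (917 cells) 6397 CPM, with 10 of 10 against 8.42%. Endothelial-like cluster 6 (274 cells) held 13000 CPM and cluster 16 (496 cells) 6248 CPM, with 9 of 10 against 11.4%, Hspb1 being the gene left out (1804 and 1418 CPM). These pairs were picked after the cluster levels were seen.

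Immediate early genes were higher in the same clusters. They were higher past 1.5-fold for 16 of 16 in beta-like cluster 0 over cluster 2, for 18 of 19 in the alpha-like pair, 20 of 20 in the delta-like pair and 10 of 21 (3 lower) in the endothelial-like pair. They had not been left out of the clustering. Of the 52 further chaperones, 11 of 46 measured were higher in beta-like cluster 0 and 0 lower, and of the 16 endoplasmic reticulum chaperones 3 were higher.

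In the control offspring library the same beta-like clusters lay closer, with 9743 CPM of the 10 genes in cluster 0 (5488 cells) and 6769 CPM in cluster 2 (2239 cells), and 3 of 10 genes past 1.5-fold against 0.641% of all genes. Within cluster 0 the IHG offspring library exceeded the control offspring library for 5 genes (1.24% of all genes were higher), within cluster 2 it was lower for 9 (3.06% of all genes were lower) and within cluster 1 for none in either direction (0.775% and 0.352%). In cluster 2 Hspb1 met the 20 CPM floor only through the control offspring cells (64.3 CPM, against 17.2 CPM in the IHG offspring ones). All 10 genes were higher in the IHG offspring library in cluster 0 and lower in it in cluster 2, 5 of them past 1.5-fold in both, so the beta-like gap between these libraries pooled clusters with opposite signs. Cluster 3 (629 IHG offspring and 268 control offspring cells) was not put to the 1.5-fold rule. All 10 genes were lower in the IHG offspring library there, at 10535 against 15386 CPM together.

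Within single clusters of the other classes the gap also depended on the cluster. Within alpha-like cluster 4 the IHG offspring library was lower than the control offspring library for 5 genes (2.4% of all genes) and within cluster 8, with 54 control offspring cells, for 10 (25.4%). Within delta-like cluster 5 it was higher for 1 gene (5.22%) and within cluster 7 lower for 10 (14.9%). Cluster 4 over cluster 8 in alpha-like cells gave 10 genes higher in the control offspring library (20.8%), 6 in the Cre-negative (12.6%) and 7 in the Cre-positive library (11%), with median log2 ratios of 0.88, 0.62 and 0.67, against 2.49 in the IHG offspring library. Cluster 5 over cluster 7 in delta-like cells gave 7 in the control offspring (11.9%) and 3 in the Cre-positive library (20.4%). Within endothelial-like cluster 6 (274 IHG offspring and 557 control offspring cells) 0 of 10 genes passed in either direction, with a median log2 ratio of −0.22. Of all genes measured there 11.1% were higher and 7.67% lower in the IHG offspring library.

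In beta-like cells of the Cre-negative library (183 and 144 cells), where 9 of the 10 genes reached 20 CPM in either cluster, 0 passed in either direction between cluster 0 and cluster 2. Of all genes measured there 3.39% were higher and 7.44% lower in cluster 0.

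**Figure D4:**
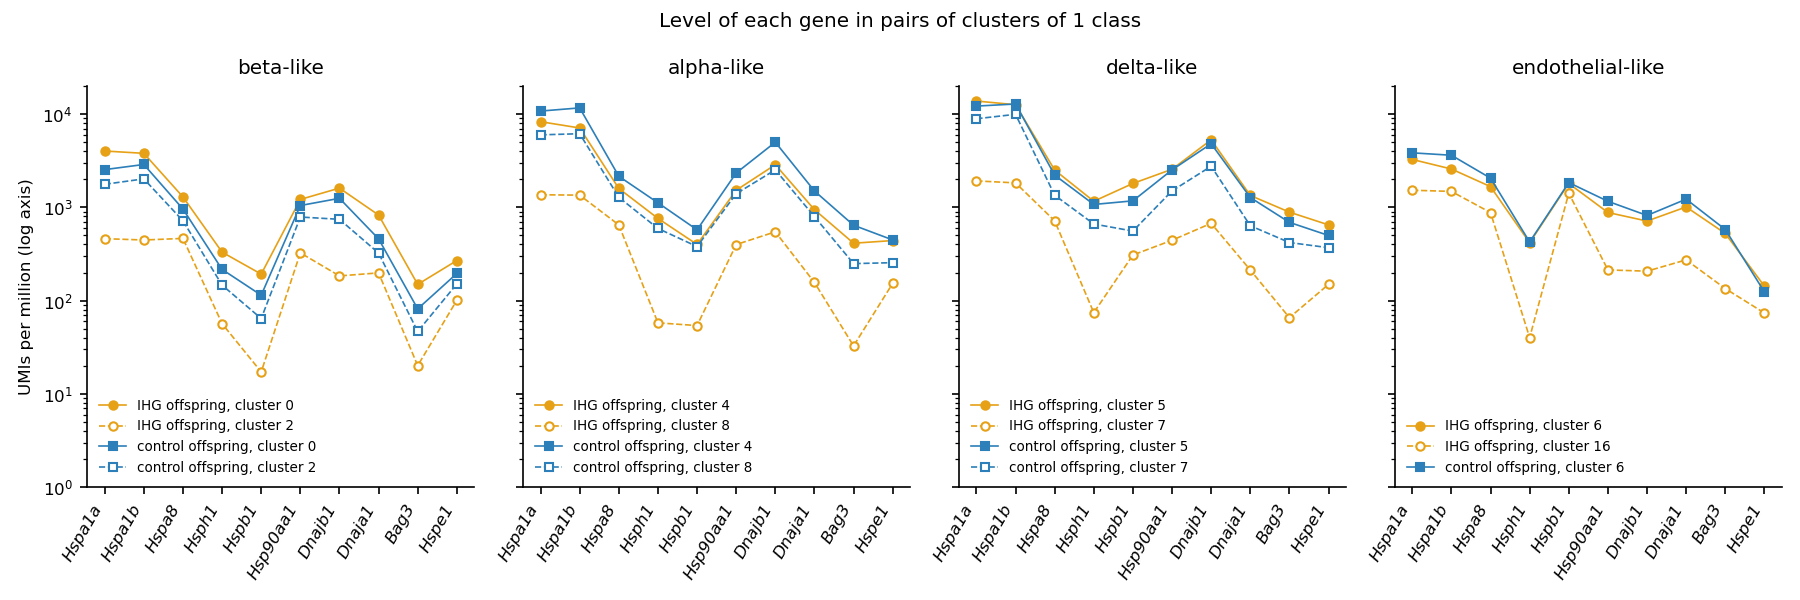
Level of each gene in CPM (log axis) in pairs of clusters of the same class, filled symbols and solid lines for the first cluster and open symbols and dashed lines for the second, in the IHG offspring and control offspring libraries; lines only join the genes of 1 cluster. For beta-like cells of the IHG offspring library Hspa1a is at 4018 CPM in cluster 0 and 461 CPM in cluster 2.

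Across single cells the genes varied together to a degree that depended on the library. Spearman's rho between Hspa1a and Hspa1b in thinned beta-like cells was 0.33 in the Cre-negative (3113 cells), 0.41 in the Cre-positive (2506), 0.52 in the control offspring (10081) and 0.75 in the IHG offspring library (5774). Between the sum of those paralogs and each of the other 8 genes it ran from −0.02 to 0.2 in the Cre-negative and from 0.27 to 0.61 in the IHG offspring library. The sum of all 10 genes followed the sum of immediate early genes with a rho of 0.44, 0.31, 0.64 and 0.83 in the 4 libraries in that order. Cells of a library share its handling, and few UMIs per gene hold these values down, so they are descriptions only.

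Bag3 illustrates the limit set by sparse counts. Among beta-like cells thinned to 1000 UMIs it had a UMI in 1.71% (1.29 to 2.22) of Cre-negative, 17.5% (16.1 to 19.1) of Cre-positive, 9.47% (8.91 to 10.1) of control offspring and 8% (7.32 to 8.73) of IHG offspring cells. At full depth the shares were 13.7%, 66.3%, 34.7% and 34%. The order of the libraries was the same on both scales as for the pooled level.

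The paralogs Hspa1a and Hspa1b encode nearly the same protein, so their balance was examined. The ratio of Hspa1a to Hspa1b UMIs was 0.731 to 0.853 over 5 classes of the Cre-negative library, 0.774 to 0.975 over 8 classes of the Cre-positive, 0.888 to 1.06 over 5 classes of the control offspring and 1.06 to 1.14 over 7 classes of the IHG offspring library. In beta-like cells of the Cre-negative library it was 0.747 (0.739 to 0.755), below the 0.97 (0.962 to 0.978) of the Cre-positive library by more than counting error. The ranges of the Cre-negative and IHG offspring libraries did not overlap, whereas those of the Cre-positive library overlapped the Cre-negative and control offspring ones. With 3′ tags the 2 genes need not be caught equally well, so only the order of the libraries can be read and not the distance from 1. Of the 90-base words in the annotated Hspa1a transcript 49.3% also occurred in Hspa1b, but 0% of those in its last 500 bases did. The authors' handling of reads that match both genes is not stated in the labels.

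**Figure D5:**
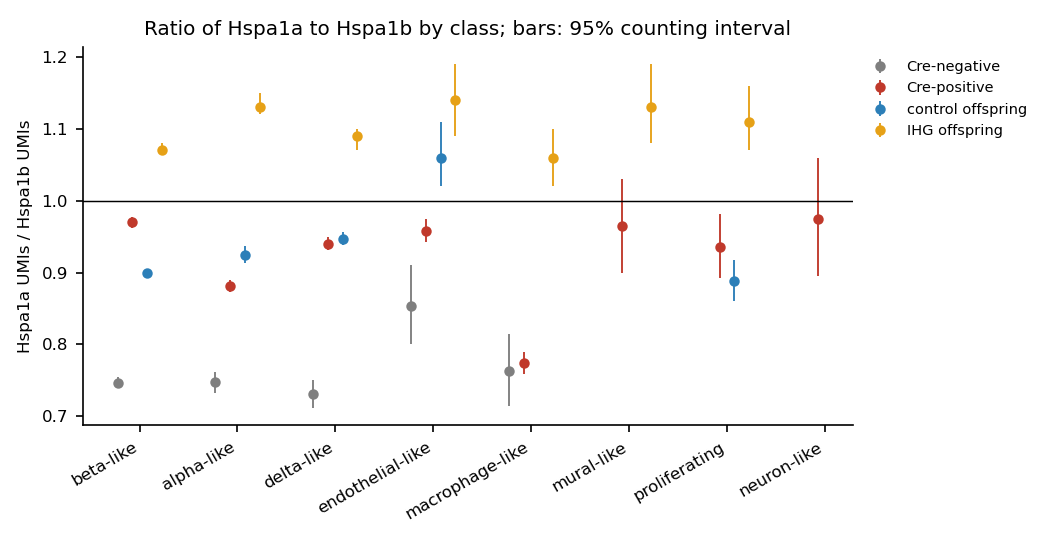
Ratio of Hspa1a to Hspa1b UMIs (linear axis that does not start at 0) by cell class and library, with 95% counting intervals; classes with fewer than 50 cells in a library have no point. The IHG offspring points run from 1.06 to 1.14 and the Cre-negative points from 0.731 to 0.853.

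Both genes lie on chromosome 17 of GRCm38, Hspa1a at 34969190 to 34972156 and Hspa1b at 34956436 to 34959238, on the minus strand. Upstream of their start sites the RefSeq promoters (GRCm38.p6) were identical at 119 of 120 bases. They are shown here because the balance of the genes differed between libraries. Other sequence that may control these genes was not compared. Hspa1a is read from chr17:34972157-34972276 and Hspa1b from chr17:34959239-34959358, both 5′ to 3′ on the minus strand, with capitals marking a pair of inverted GAA units.
Hspa1a: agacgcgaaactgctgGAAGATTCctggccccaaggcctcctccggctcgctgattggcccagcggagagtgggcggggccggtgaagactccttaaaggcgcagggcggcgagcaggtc
Hspa1b: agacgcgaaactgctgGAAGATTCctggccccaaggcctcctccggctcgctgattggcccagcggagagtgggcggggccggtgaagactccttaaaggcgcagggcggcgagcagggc

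Of the 10 genes, 8 were matched to RefSeq promoter windows of 300 bases (250 before and 50 after the start site). A pair of inverted GAA units, GAANNTTC or TTCNNGAA on either strand, was found for 7 of the 8, all but Dnajb1. A gene was counted if any of its windows matched, and Dnaja1 matched in 1 of its 3 windows. Of all 32851 single windows 15.1% matched, so the count of genes and the share of windows are in unlike units. A run of 3 alternating units, GAANNTTCNNGAA or TTCNNGAANNTTC, which contains such pairs, was found for Hsph1 and Hspe1 and in 0.603% of all windows. These genes are shown because they carry that rarer form, and Bag3, Hspb1 and Dnaja1 because their levels varied most between libraries or classes. The matches below are shown with flanking bases on the strand of the gene, capitals marking the units. Hspe1 is read from chr1:55088053-55088082 (plus strand), Hsph1 from chr5:149636280-149636308 (minus), Hspb1 from chr5:135887811-135887840 (plus), Dnaja1 from chr4:40722333-40722362 (plus) and Bag3 from chr7:128523614-128523632 (plus).
Hspe1: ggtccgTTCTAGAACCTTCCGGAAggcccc
Hsph1: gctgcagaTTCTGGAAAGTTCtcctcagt
Hspb1: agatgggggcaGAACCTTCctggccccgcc
Dnaja1: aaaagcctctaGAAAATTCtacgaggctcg
Bag3: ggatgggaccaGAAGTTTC
The Hspe1 match starts 89 bases before the start site and the Bag3 match 43 bases after it. Hsph1 was among the genes with the widest span between libraries in beta-like cells and Hspe1 among those with a narrow one. Whether the rarer form goes with the span was not tested. A match of letters is no measurement of binding.

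Over 25 sums of a class in a library, the genes whose log2 level was most like the mean of the 10 included Hspd1 (Pearson's r = 0.91), Hsp90ab1 (0.85), Tiparp (0.85), Ccdc117 (0.84), Swt1 (0.79), Dnajb4 (0.79) and Chordc1 (0.77). The sums of a library share its depth and handling, and these values carry no test. Among the 10 genes themselves Hspa1a and Hspa1b were the most alike (0.98), and Hspb1 and Dnajb1 the least (−0.10). Hspd1 was also the closest gene to Hspe1 (0.95). Their annotated genes overlap on opposite strands, and the labels do not say whether the authors' counting used the strand. Reads that lie in the overlap may therefore not have been told apart, and how many 3′ tags lie there was not examined.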

How the data were processed

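Single-cell UMI counts were deposited by the authors as 1 matrix of whole numbers per library, not normalized. Per the submitters' processing notes, Cell Ranger, Seurat and mm10 were used, in roles and versions that are not stated; nor are the annotation and the use of strand. Barcodes needed 500 genes or more and no more than 20% of UMIs from mitochondrially encoded genes. Doublets were removed with Scrublet (scanpy 1.11.5), or as the top 6% of scores in the 2 libraries where it marked under 0.5%. Leiden clustering (leidenalg 0.10.2; 2000 variable genes without the chaperones, 30 components, resolution 1) was followed by naming from fixed markers; clusters without a clear name (498 to 1862 cells per library) stayed unnamed. UMIs were summed per class and library, for classes of at least 50 cells, and divided by all UMIs to give CPM. Ratios carry exact conditional binomial intervals and levels exact Poisson intervals, for counting error only, since PCR copies are merged but cells of 1 library are not replicates. A ratio with 0 UMIs would have used a floor of 3 UMIs. Correlations over sums used log2(CPM + 5). The ratio rule was tested on simulated counts.

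All 10 genes were named in every comparison, with at most 8 further chaperones per direction by size of ratio. The 10 genes and all lists were chosen with earlier results of these data known. Promoter windows are from RefSeq and gene positions from GENCODE vM21 (GRCm38). Alternatives covered scaling, filters, doublets, thinning and clustering. Barcodes left out by the filters entered no comparison. One gene most like the 10 by that correlation is not reported here.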

Additional observations from a re-analysis of the deposited data

Results flagged for a closer look

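Dnajb1 went against its own direction in 1 class: in the Cre-positive library it was 1.99-fold lower in macrophage-like cells (1.82 to 2.18, 693 against 59 cells), while it was higher past 1.5-fold in beta-like, delta-like and endothelial-like cells. The difference between classes was not tested, since each group has 1 library.

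When the IHG offspring library was set against the control offspring library, all 10 genes had opposite signs in beta-like clusters 0 and 2, and 5 of them passed 1.5-fold in both. For these 5 the log2 ratio in cluster 0 and in cluster 2 was 0.66 and −1.94 for Hspa1a, 0.61 and −1.37 for Hsph1, 0.75 and −1.91 for Hspb1, 0.85 and −0.71 for Dnaja1, and 0.87 and −1.22 for Bag3. The clusters were compared after their levels were seen, and the difference was not tested.

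Barcodes that entered no comparison differed between the libraries too. The 10 genes together stood at 23032 CPM in the barcodes that the quality filter left out of the Cre-positive library and at 7491 CPM in those of the Cre-negative library, 3.07-fold higher. In unnamed clusters the levels were 32680 and 12862 CPM, 2.54-fold higher. These pools differ in makeup, with cluster 9 holding 95.6% of the unnamed cells of the Cre-negative and 20.1% of those of the Cre-positive library, and within it the levels were 12849 and 34506 CPM. For the offspring libraries the same barcodes were lower in the IHG offspring library, 2.63-fold in those left out and 2.17-fold in unnamed clusters, but within unnamed cluster 12 the levels were close, at 28322 CPM in the IHG offspring and 30320 CPM in the control offspring library.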

How the results depend on the processing

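No paired analysis was possible because each group has 1 library. Each alternative changed 1 choice, and those for classes other than beta-like cells, shared barcodes, single clusters, insulin-rich cells and the shares per cell were chosen after the data were seen. Every count of genes past 1.5-fold for Cre-positive against Cre-negative in beta-like, alpha-like, delta-like and endothelial-like cells, and for IHG against control offspring in alpha-like, delta-like and endothelial-like cells, stayed within 1.5 times its value. The log2 ratio of a gene in beta-like cells kept its sign in 150 of 150 values for the Cre libraries (Bag3 from 3.59 to 4.41, Hspb1 from 0.95 to 1.87) and in 132 of 150 for the offspring libraries. The IHG offspring count in beta-like cells (1 gene, lower) was 0 with median-of-ratios scaling, with hormone and mitochondrially encoded genes left out of the total, with at most 10% mitochondrially encoded UMIs, with cells thinned to 2000 UMIs, with each library clustered on its own, at Leiden resolution 2, with each cell weighted equally, with cells rich in other hormones left out and in cluster 1 alone. In cluster 0 alone it was 5, all higher, and Dnajb1 reversed to a log2 ratio of 0.36. The share of beta-like cells with under 8 UMIs of the 10 genes went from 44.7% to 40.7% with at most 10% mitochondrially encoded UMIs, to 42.7% with clustering per library and to 43.1% at resolution 2 in the IHG offspring library, and from 8.25% to 7.59% with no doublets removed in the control offspring library. The cause of these shifts was not tested. Leaving out cells rich in other hormones could not be run for alpha-like and delta-like cells, which it would remove. With 1 library per group, neither the group nor the handling of a library can be told apart from the other.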
